A study of Mus musculus with 6 samples.

Results

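The 10 heat shock proteins and co-chaperones described here are *Hspa1a*, *Hspa1b*, *Hspa8*, *Hsph1*, *Dnaja1*, *Dnajb1*, *Hsp90aa1*, *Hsp90ab1*, *Hspb1* and *Hspe1*, picked by gene symbol. All 10 were counted, and all 10 were among the 9334 genes that passed a filter of 10 or more tags in 3 or more libraries and were tested. The data came from *Il11-Egfp* reporter mice on the C57BL/6 background, which carry *Egfp* in a bacterial artificial chromosome of the *Il11* locus. The mice, 9 to 15 weeks old, drank 1.5% dextran sulfate sodium (DSS), which injures the colonic epithelium, for 5 days and then plain water. On day 7, viable (DAPI-negative) colonic stromal cells lacking CD45, CD31, EpCAM and Ter119 were sorted into EGFP-Positive (IL-11+) and EGFP-Negative (IL-11-) fractions. RNA from 3 mice was sequenced by 5′Tag-seq, which counts tags from the 5′ ends of polyadenylated transcripts, giving 3 libraries per fraction. The IL-11- libraries 1, 2 and 3 held 1057170, 1078179 and 1169817 tags, and the IL-11+ libraries held 1046538, 1022851 and 1049048. Both fractions were exposed to DSS, so the comparison asks how chaperone transcripts differed between IL-11+ and IL-11- stromal cells of the inflamed colon.

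*Il11* itself checked the labels. It gave 28, 51 and 89 tags in the IL-11- libraries and 1357, 732 and 2658 tags in the IL-11+ libraries. The fractions did not overlap, although transcripts of the reporter may have been counted with *Il11*. Cells were sorted as a fraction, so fewer cells of a type and less RNA per cell cannot be told apart for any gene below. A count of 0 in a library allows up to 3 tags, which was 2.56 to 2.93 CPM (counts scaled to library size) at these depths and covers counting error only.

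Heat shock proteins are molecular chaperones that hold, fold or refold other proteins. HSP70 works in a cycle of ATP hydrolysis that J-domain proteins start and nucleotide exchange factors reset, and it passes some clients on to HSP90. Small heat shock proteins bind unfolding clients without ATP, and heat shock factor 1 induces many of these genes when proteins misfold.

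Of the 10 members, 4 were lower and 1 was higher in IL-11+ cells at an adjusted p under 0.05, all by less than 2-fold. Adjusted p-values came from the quasi-likelihood test of edgeR, with the Benjamini-Hochberg method applied over all tested genes. The lower genes were *Hspa1a*, *Hspa1b*, *Dnajb1* and *Hspb1*, and the higher gene was *Hspe1*. DESeq2 gave 2 lower and 1 higher by this rule, and edgeR without IL-11- replicate 2 gave 0 in both directions. With replicate number as blocking factor, edgeR gave the same 4 lower and 1 higher, against 1014 lower and 877 higher of the 9334 tested genes. The edgeR adjusted p in this blocked fit was 0.000101 for *Hspa1a*, 0.00973 for *Hspa1b*, 7.58e-05 for *Dnajb1*, 0.000337 for *Hspb1* and 0.00334 for *Hspe1*. Over all tested genes, 8.56% were lower and 6.97% were higher by the same rule in edgeR with all 6 libraries and no block. With a fold change over 2 required as well, edgeR called 0 of the 10 members and DESeq2 also called 0, while 3.45% of all tested genes were called higher and 6.3% lower. At an unadjusted p under 0.05, edgeR gave 2 members higher and 4 lower, against 1174 higher and 1330 lower of the 9334 tested genes. All 3 IL-11+ libraries were below all 3 IL-11- libraries for 4 members and above them for 2, against 16.4% and 15% of all tested genes. The median log2 fold change (IL-11+ over IL-11-) was −0.12 for the members and −0.00 for all tested genes.

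The members together took a slightly smaller share of the tags in the IL-11+ library of each replicate number. They made up 0.442%, 0.491% and 0.444% of the tags in the IL-11- libraries and 0.388%, 0.445% and 0.396% in the IL-11+ libraries. These shares were not scaled for library composition. With TMM scaling, the members summed to 4463 ± 366 normalized CPM in IL-11- cells and 4219 ± 341 in IL-11+ cells (SD, n = 3 each), a ratio of 0.945. On both scales the ranges of the fractions overlapped, since IL-11+ library 2 was above IL-11- libraries 1 and 3, and the difference was not tested.

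**Figure D1:**
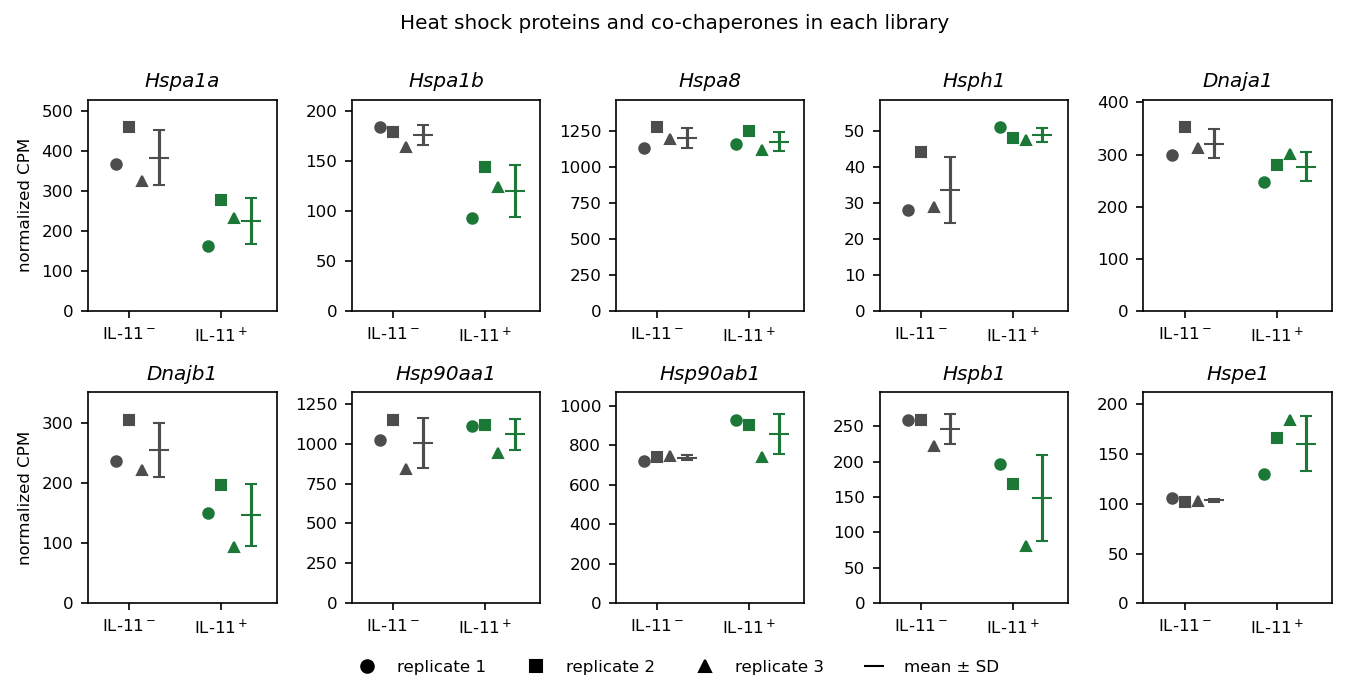
Normalized CPM (TMM-scaled, vertical axes from 0) of each member in the 3 IL-11- libraries (gray) and the 3 IL-11+ libraries (green), with symbols for the replicate number and the mean ± SD beside them. *Hspa1a*, *Hspa1b*, *Dnajb1* and *Hspb1* were lower in every IL-11+ library than in any IL-11- library, and *Hsph1* and *Hspe1* were higher.

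Within the HSP70 family, *Hspa1a* and *Hspa1b* were lower in IL-11+ cells, and the constitutive *Hspa8* did not pass the test. *Hspa1a* and *Hspa1b* encode the stress-inducible cytosolic HSP70 and lie 10.1 kb apart on the minus strand of chromosome 17 (chr17:34969359-34972156 and chr17:34956429-34959238, GRCm38.p6). *Hspa1a* gave 393, 498 and 403 tags in the IL-11- libraries and 156, 277 and 249 tags in the IL-11+ libraries. Every IL-11+ library was below every IL-11- library, and replicate 2 was highest in each fraction. Its level was 382 ± 69.0 normalized CPM (SD, n = 3) in IL-11- cells and 224 ± 57.8 (SD, n = 3) in IL-11+ cells. This was a log2 fold change of −0.77 (SE 0.199, 95% confidence interval −1.19 to −0.35), or 1.71-fold lower, with an edgeR adjusted p = 0.0115. This p was 0.0890 without IL-11- replicate 2 and 0.0638 without IL-11+ replicate 1, and it ranged from 0.000101 to 0.0890 over the alternative fits of this gene.

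*Hspa1b* gave 197, 195 and 205 tags in the IL-11- libraries and 89, 144 and 133 tags in the IL-11+ libraries. The fractions did not overlap, and the IL-11- libraries were within 10 tags of each other. Its log2 fold change was −0.54 (SE 0.180, 95% confidence interval −0.92 to −0.17), with an edgeR adjusted p = 0.0467 that was close to the threshold. This p was 0.05 or over in 7 of 14 alternative fits (range 0.00973 to 0.211). They were DESeq2 (0.102), no filter on low counts (0.0708), a filter of 10 tags summed over libraries (0.0633), and leaving out IL-11- replicate 1 (0.104) or 2 (0.126) or IL-11+ replicate 1 (0.211) or 3 (0.0712).

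The values of these neighbours are uncertain one by one, because their transcripts are nearly the same. Of the 2918 stretches of 50 bases in the *Hspa1a* transcript, 58.8% also occurred in *Hspa1b*, and within its first 300 bases, where 5′ tags begin, 69.3% did. Counting could therefore have moved tags from one gene to the other. Summed as 1 gene, they gave 590, 693 and 608 tags in the IL-11- libraries and 245, 421 and 382 in the IL-11+ libraries, again with no overlap. For the sum, the log2 fold change was −0.70 (SE 0.190), or 1.62-fold lower, with an edgeR adjusted p = 0.0166.

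*Hspa8* (chr9:40801276-40805202), which encodes the constitutive cognate HSP70, gave 1218, 1388 and 1494 tags in the IL-11- libraries and 1112, 1248 and 1201 tags in the IL-11+ libraries. After scaling, the fractions overlapped, at 1203 ± 70.8 and 1176 ± 66.7 normalized CPM (SD, n = 3 each). The log2 fold change was −0.03, and its 95% confidence interval of −0.37 to 0.30 lay well within 2-fold (edgeR adjusted p = 0.929). The tags of *Hspa1a* and *Hspa1b* per tag of *Hspa8* were 0.484, 0.499 and 0.407 in IL-11- cells and 0.220, 0.337 and 0.318 in IL-11+ cells. This ratio, which does not depend on scaling between libraries, was thus lower in each IL-11+ library than in any IL-11- library.

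*Hsph1* (chr5:149616843-149636498) encodes the HSP110 protein that exchanges nucleotide on HSP70. It gave 30, 48 and 36 tags in the IL-11- libraries and 49, 48 and 51 tags in the IL-11+ libraries. All 3 IL-11+ libraries were higher on the normalized scale, yet by little over IL-11- library 2. The log2 fold change of 0.54 (SE 0.238) did not pass the test (edgeR adjusted p = 0.147). *Hsph1* is induced by heat like *Hspa1a*, but its point estimate had the opposite sign.

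The J-domain proteins deliver clients to HSP70 and start its ATPase. *Dnajb1* (chr8:83608175-83612653), the inducible HSP40, gave 253, 332 and 277 tags in the IL-11- libraries and 144, 197 and 101 tags in the IL-11+ libraries. The fractions did not overlap, with IL-11- replicate 2 highest and IL-11+ replicate 3 lowest. Its level was 254 ± 44.7 normalized CPM (SD, n = 3) in IL-11- cells and 147 ± 51.6 (SD, n = 3) in IL-11+ cells. The log2 fold change of −0.79 (SE 0.220, 95% confidence interval −1.25 to −0.33) was the lowest among the members, with an edgeR adjusted p = 0.0183. This p was 0.119 without IL-11- replicate 2 and 0.0747 without IL-11+ replicate 3 (range over 15 alternative fits, 7.58e-05 to 0.119). Without IL-11+ replicate 2 the log2 fold change was −1.06, past 2-fold, with an edgeR adjusted p = 0.00619.

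*Dnaja1* (chr4:40722468-40734965), another J-domain partner of cytosolic HSP70, gave 320, 383 and 389 tags in the IL-11- libraries and 237, 280 and 324 tags in the IL-11+ libraries. IL-11+ library 3 overlapped the IL-11- range after scaling, and the log2 fold change of −0.21 (SE 0.163) did not pass the test (edgeR adjusted p = 0.448). Tags of *Dnajb1* per tag of *Dnaja1* were 0.791, 0.867 and 0.712 in IL-11- cells and 0.608, 0.704 and 0.312 in IL-11+ cells. The ratio was lower in every IL-11+ library, though IL-11+ library 2 was close to IL-11- library 3.

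HSP90 takes over clients such as kinases and steroid receptors at a late stage of folding. *Hsp90aa1* (chr12:110691036-110696395), the inducible cytosolic form, gave 1098, 1251 and 1050 tags in the IL-11- libraries and 1067, 1117 and 1014 tags in the IL-11+ libraries. The fractions overlapped, and the log2 fold change was 0.07 (95% confidence interval −0.29 to 0.44; edgeR adjusted p = 0.840), with the sign turning to −0.01 when libraries were scaled by size only. *Hsp90ab1* (chr17:45567778-45573261), the constitutive form, gave 776, 806 and 932 tags in the IL-11- libraries and 893, 903 and 798 tags in the IL-11+ libraries. Its IL-11- libraries were nearly equal after scaling (737 ± 12.3 normalized CPM; SD, n = 3) and IL-11+ library 3 was among them. The log2 fold change of 0.22 (95% confidence interval −0.12 to 0.56) did not pass the test (edgeR adjusted p = 0.431). The inducible and the constitutive HSP90 gene thus both lacked a difference past the test, as did *Hspa8*.

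*Hspb1* (chr5:135887919-135889563) encodes the small heat shock protein HSP25 (HSP27 in humans), which binds unfolding proteins and actin filaments. It gave 277, 282 and 277 tags in the IL-11- libraries and 189, 169 and 87 tags in the IL-11+ libraries. The IL-11- libraries were nearly equal in tags, but library 3 was lower after scaling (258, 259 and 222 normalized CPM). IL-11+ library 3 was far below the other IL-11+ libraries. Its level was 247 ± 21.3 normalized CPM (SD, n = 3) in IL-11- cells and 149 ± 60.5 (SD, n = 3) in IL-11+ cells. *Hspb1* thus had a log2 fold change of −0.73 (SE 0.233, 95% confidence interval −1.22 to −0.24), with an edgeR adjusted p = 0.0401. Without IL-11+ replicate 3 the log2 fold change was −0.44 (edgeR adjusted p = 0.133). This p was also 0.05 or over with DESeq2 (0.0564) and without IL-11- replicate 1 (0.0905), IL-11- replicate 2 (0.131) or IL-11+ replicate 2 (0.0649), within a range of 0.000337 to 0.133 over 15 alternative fits.

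*Hspe1* (chr1:55088148-55091317) encodes the HSP10 lid of the mitochondrial chaperonin, whose barrel is HSP60, the product of *Hspd1*. It gave 113, 111 and 128 tags in the IL-11- libraries and 125, 166 and 198 tags in the IL-11+ libraries. On the normalized scale each IL-11+ library was above the IL-11- libraries, whose values were nearly the same (103 ± 1.75 normalized CPM against 160 ± 27.6; SD, n = 3 each). The log2 fold change was 0.63 (SE 0.174), which is 1.55-fold higher, with an edgeR adjusted p = 0.0169. This p was 0.05 or over in 6 of 15 alternative fits (range 0.00334 to 0.0845). They were scaling by library size only (0.0536) and leaving out IL-11- replicate 1 (0.0568), 2 (0.0845) or 3 (0.0525) or IL-11+ replicate 2 (0.0620) or 3 (0.0807).

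*Hspd1* and *Hspe1* sit head to head, and their annotated spans overlap by 96 bases (*Hspd1*, chr1:55077833-55088243, on the minus strand). *Hspd1* gave 151, 165 and 195 tags in the IL-11- libraries and 142, 161 and 203 tags in the IL-11+ libraries, with overlapping fractions (log2 fold change 0.15, edgeR adjusted p = 0.616). Tags of *Hspe1* per tag of *Hspd1* were 0.748, 0.673 and 0.656 in IL-11- cells and 0.880, 1.03 and 0.975 in IL-11+ cells. The ratio did not overlap between the fractions, and its difference was not tested.

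**Figure D2:**
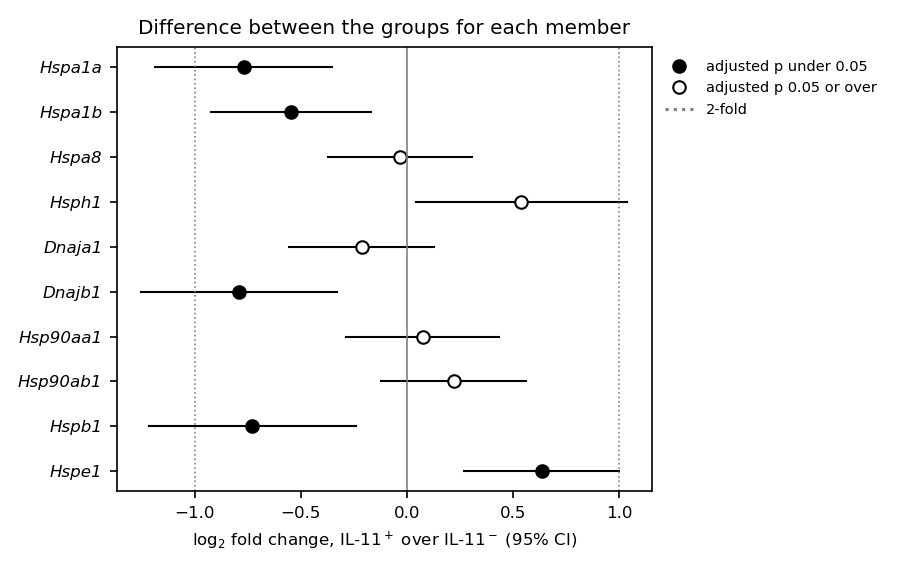
Log2 fold change (IL-11+ over IL-11-, horizontal axis) of each member with its unadjusted 95% confidence interval. Filled points had an edgeR adjusted p under 0.05, and dotted lines mark a 2-fold difference. The filled points lie between −0.79 and −0.54 for the 4 lower genes and at 0.63 for *Hspe1*.

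Among the lists of genes that work with the members, the other small heat shock proteins had genes called at over 2-fold. Of 7 listed small heat shock proteins, 4 were tested, and 3 of them (*Cryab*, *Hspb7* and *Hspb8*) were called lower by edgeR at over 2-fold. *Cryab*, the lens and muscle protein αB-crystallin, gave 61, 72 and 125 tags in the IL-11- libraries and 5, 10 and 34 tags in the IL-11+ libraries. The fractions did not overlap (log2 fold change −2.22, SE 0.384, edgeR adjusted p = 0.000434). *Hspb8*, which works with BAG3 in the autophagy of damaged filaments, gave 458, 389 and 451 tags against 185, 141 and 243 (log2 fold change −1.03, SE 0.185, edgeR adjusted p = 0.000613). *Hspb7*, known from heart and muscle, gave 26, 24 and 26 tags against 13, 5 and 6 (log2 fold change −1.48, SE 0.386, edgeR adjusted p = 0.0125). The tested gene of the list that was not called, *Hspb11*, had a log2 fold change of 0.23. With *Hspb1*, 4 small heat shock protein genes were therefore lower in IL-11+ cells.

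Among the other J-domain proteins, 15 of 15 were tested, 1 was lower and 0 were higher at an edgeR adjusted p under 0.05 (DESeq2 gave the same counts). It was *Dnajb4*, the closest relative of *Dnajb1* in the list, with 265, 325 and 291 tags in the IL-11- libraries and 136, 175 and 133 tags in the IL-11+ libraries. These fractions did not overlap (log2 fold change −0.82, SE 0.178, edgeR adjusted p = 0.00305). *Dnajb6* and *Dnajc8*, the next by tag count, had log2 fold changes of 0.31 and 0.23 and did not pass the test. The median over the 15 genes was 0.14.

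Of the 8 other HSP70 family genes, 6 were tested and 1 was higher, *Hspa13* (92, 115 and 154 tags against 142, 153 and 170; log2 fold change 0.54, edgeR adjusted p = 0.0414, and 0.0961 with DESeq2). *Hspa4*, an HSP110-type exchange factor like *Hsph1*, gave 172, 146 and 147 tags against 177, 159 and 263, a log2 fold change of 0.52. Its edgeR adjusted p was 0.0743, and 0.0214 with replicate number as blocking factor. *Hspa4l* had a log2 fold change of 0.21, and the median over the 6 genes was 0.35.

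The nucleotide exchange factors and adaptors of HSP70 were all tested, 9 of 9, and 1 was higher at an edgeR adjusted p under 0.05. *St13*, which stabilizes the client-bound state of HSP70, gave 117, 151 and 134 tags in the IL-11- libraries and 181, 218 and 174 tags in the IL-11+ libraries. No IL-11- library reached the IL-11+ range (log2 fold change 0.68, SE 0.177, edgeR adjusted p = 0.0122). *Bag3*, a heat-inducible exchange factor, had 191, 222 and 263 tags against 221, 202 and 225, and its fractions overlapped (log2 fold change 0.11, edgeR adjusted p = 0.715). *Stub1*, the ubiquitin ligase CHIP, had a log2 fold change of 0.19. *Bag2*, named after its values were seen, had a log2 fold change of −1.08 with an edgeR adjusted p of 0.0640, and 0.0327 with replicate number as blocking factor.

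In the lists of HSP90 co-chaperones (12 of 12 tested), mitochondrial chaperones and proteases (9 of 9), CCT chaperonin subunits (8 of 8) and heat shock factors with their regulators (3 of 4), 0 genes passed edgeR's test and 0 passed DESeq2's. At an unadjusted p under 0.05, edgeR gave 1 higher gene among the HSP90 co-chaperones and 0 in the other lists. That gene was *Stip1*, which bridges HSP70 and HSP90 (log2 fold change 0.48, edgeR adjusted p = 0.101, and 0.0394 with replicate number as blocking factor). *Ptges3* and *Fkbp5* had log2 fold changes of 0.06 and −0.12, *Hspa9* and *Trap1* 0.05 and −0.31, and the CCT subunits *Cct8*, *Cct2* and *Cct3* 0.17, −0.06 and 0.28. *Hsf1*, the factor that induces heat shock genes, gave 19, 24 and 24 tags against 18, 26 and 19, and *Hsf2* and *Hsbp1* had log2 fold changes of 0.00 and 0.25. The list medians were 0.07, 0.05, 0.11 and 0.08 in the order given, and with scaling by library size only they were −0.02, −0.04, 0.02 and −0.00. Differences as small as these changed sign with the scaling in 3 of the 4 lists.

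Of 6 other heat-inducible genes, all tested, edgeR called 1 lower at over 2-fold, and at an adjusted p under 0.05 alone 2 were lower and 1 was higher. *Atf3*, a stress-induced transcription factor, was the called gene, with 1152, 1487 and 780 tags in the IL-11- libraries and 219, 303 and 155 in the IL-11+ libraries (log2 fold change −2.18, SE 0.270, edgeR adjusted p = 1.33e-05). *Gadd45b*, named after its values were seen, was also lower (log2 fold change −0.82, edgeR adjusted p = 0.0127). *Serpinh1*, the collagen chaperone HSP47, was higher, with 569, 895 and 1217 tags against 877, 1482 and 1423, and its fractions overlapped (log2 fold change 0.68, edgeR adjusted p = 0.0436). *Hmox1*, heme oxygenase 1, named after its values were seen, gave 322, 117 and 536 tags against 539, 223 and 1003. Its fractions overlapped, while in each replicate number the IL-11+ library was the higher one (log2 fold change 1.04, edgeR adjusted p = 0.0972, and 3.81e-07 with replicate number as blocking factor, which called it higher). *Ubb*, which encodes ubiquitin, had a log2 fold change of −0.14 and did not pass the test. Heat-inducible genes outside the HSP70 and small heat shock protein families thus went in both directions.

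Chaperones of the endoplasmic reticulum are controlled mainly by the unfolded protein response and not by heat shock factor 1. All 12 were tested, 11 had a log2 fold change above 0, against 4632 of all 9334 tested genes, and the median was 0.40. Their summed level overlapped between the fractions, at 7968, 9210 and 10310 normalized CPM in the IL-11- libraries and 7012, 9673 and 9820 in the IL-11+ libraries. At an edgeR adjusted p under 0.05, 2 were higher and 0 were lower. With replicate number as blocking factor, 6 were higher and 1 was lower. The higher genes, named after their values were seen, were *Canx* (log2 fold change 0.68, edgeR adjusted p = 0.00999) and *Pdia6* (0.61, edgeR adjusted p = 0.0336). *Hspa5*, the HSP70 of this compartment, was the exception in sign, with 4763, 5361 and 6878 tags in the IL-11- libraries and 2565, 3925 and 4314 in the IL-11+ libraries. Its log2 fold change was −0.49 with an edgeR adjusted p of 0.104, and 0.00367 with replicate number as blocking factor. *Hsp90b1* and *Calr* had log2 fold changes of 0.14 and 0.38, and *Calr* had an edgeR adjusted p of 0.183, and 0.0451 with replicate number as blocking factor.

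**Figure D3:**
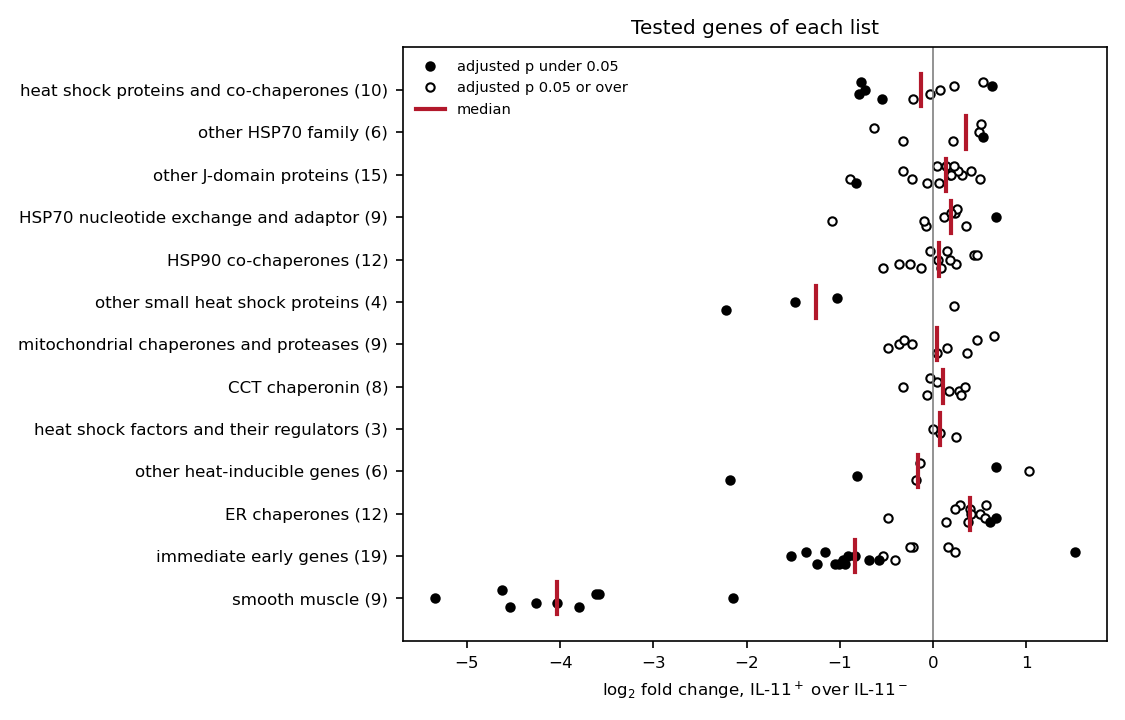
Log2 fold change (IL-11+ over IL-11-, horizontal axis) of every tested gene of the members and of each list named on the vertical axis, with the number tested in brackets. Filled points had an edgeR adjusted p under 0.05 and red bars mark medians, such as −0.12 for the members, −1.25 for the other small heat shock proteins, −0.83 for the immediate early genes and −4.03 for the smooth muscle markers.

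Immediate early genes were mostly lower in IL-11+ cells as well. They encode transcription factors and regulators that are switched on quickly by stimulation, and they are often induced along with HSP70 when tissue is dissociated into cells. All 19 were tested, 12 were lower and 1 was higher at an edgeR adjusted p under 0.05, and at over 2-fold 6 were called lower and 1 higher. Their summed level was 32879, 33978 and 26549 normalized CPM in the IL-11- libraries and 19214, 20726 and 19197 in the IL-11+ libraries. *Egr1*, the gene of the list with the most tags, gave 6304, 6178 and 5116 tags against 3276, 3817 and 3855 (log2 fold change −0.53, edgeR adjusted p = 0.0612, and 0.00377 with replicate number as blocking factor). *Fos* gave 5256, 5631 and 5104 tags against 2356, 2690 and 2375 (log2 fold change −0.94, edgeR adjusted p = 0.000951). *Klf4*, *Btg2* and *Zfp36* were called lower, with log2 fold changes of −1.36, −1.24 and −1.16. *Jun* had a log2 fold change of −0.22 that did not pass the test, and *Ier3* was called higher (717, 563 and 556 tags against 1607, 1254 and 1889; log2 fold change 1.52). The median over the 19 genes was −0.83. The part of the early response in the lower level of the heat shock genes was not tested.

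Markers of other stromal cell types also differed between the fractions. All 9 smooth muscle markers were called lower in IL-11+ cells, with a summed level of 2670, 3292 and 4131 normalized CPM in the IL-11- libraries and 105, 175 and 351 in the IL-11+ libraries. *Myh11*, smooth muscle myosin and the gene of the list with the most tags, gave 850, 943 and 1332 tags against 18, 18 and 84. *Acta2* and *Tagln* had log2 fold changes of −3.79 and −3.61, and *Myl9* and *Des* −4.26 and −3.58. Smooth muscle is a tissue in which *Hspb1*, *Cryab*, *Hspb7* and *Hspb8* are known to be abundant, and the part of these cells in the chaperone differences was not tested.

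Of 6 pericyte markers, 3 were called lower, *Rgs5*, *Notch3* and *Cspg4* (log2 fold changes −3.11, −3.93 and −2.31), while *Abcc9* and *Kcnj8* passed the test in the other direction (0.67 and 0.72) at under 2-fold. The pericyte sum was 2566, 2175 and 1975 normalized CPM in the IL-11- libraries and 1050, 882 and 775 in the IL-11+ libraries, led by *Rgs5*. The enteric glia marker *Gfap* had 22, 23 and 26 tags in the IL-11- libraries and 1, 0 and 1 tags in the IL-11+ libraries, and was called lower (log2 fold change −4.75). *S100b*, also a glia marker, had 3, 9 and 4 tags against 0 in every IL-11+ library and was not tested. The 3 markers of interstitial cells of Cajal were called lower, with summed levels of 227 ± 54.9 normalized CPM (SD, n = 3) in IL-11- cells and 30.1 ± 16.7 (SD, n = 3) in IL-11+ cells. *Ano1* led that list with 152, 93 and 196 tags against 1, 0 and 15, followed by *Etv1* and *Kit* (log2 fold changes −1.11 and −4.33). The part of these cell types in the chaperone differences was likewise not tested.

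Fibroblast markers were present in both fractions. Of 10, all tested, 2 were called higher in IL-11+ cells, *Pdpn* and *Col3a1* (log2 fold changes 1.06 and 1.05), and at an edgeR adjusted p under 0.05 alone 4 were higher and 1 was lower. With scaling by library size only, 0 were called by edgeR. Their sum was 22288, 22365 and 24666 normalized CPM in the IL-11- libraries and 42369, 34370 and 30223 in the IL-11+ libraries, led by *Dcn*. *Dcn* had a log2 fold change of 0.68, and *Col1a2* had 0.43 with an edgeR adjusted p of 0.133, and 0.0110 with replicate number as blocking factor. The other genes that passed, named after their values were seen, were *Thy1* (0.89) and *Lum* (−0.63).

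The defining markers of the lineages removed by the sort were at or near 0. *Epcam* had at most 1 tag in any library, *Pecam1* at most 1 and *Ptprc* at most 7. Summed epithelial markers reached 12.0 normalized CPM in IL-11- library 3 and at most 4.66 in the IL-11+ libraries, led by *Krt8*, and 0 of them were tested. Mesothelial markers, led by *Upk3b*, summed to 3.73, 0.920 and 16.8 normalized CPM in the IL-11- libraries and to 0 in each IL-11+ library. Of the endothelial markers 1 was tested, *Tek*, with 33, 24 and 42 tags against 17, 7 and 5 (called lower, log2 fold change −1.58). Of the leukocyte markers 1 was tested, *Cd14*, with 10, 4 and 5 tags against 36, 31 and 13 (called higher, log2 fold change 2.23). Erythroid transcripts, led by *Hbb-bs*, summed to 88.6, 0 and 298 normalized CPM in the IL-11- libraries and to 18.8, 2.00 and 18.6 in the IL-11+ libraries, so that IL-11- library 3 stood apart from the rest.

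Because *Hspa1a*, *Hspa1b*, *Hspb1* and *Dnajb1* were lower together, the bases before the starts of the members were searched for heat shock elements, the inverted repeats that heat shock factors bind. RefSeq promoters (GRCm38.p6) were matched for 7 of the 10 members, and *Hspa8*, *Hsp90aa1* and *Hsp90ab1* had none in the table used. A pair of facing units, spelled TTCNNGAA or GAANNTTC and the same on both strands, was present in the 250 bases before a start of 6 of the 7 genes, all but *Dnajb1*. It was present for 14.5% of the 27025 genes in the table, and in 12.8% of its 32851 promoters. Only *Hspe1* among the 7 had 3 alternating units with the same spacing, which 0.514% of genes had. The letters TATAAA, or TTTATA for the other strand, were in 0 of the 7 genes and in 14.3% of all genes. A match describes letters and not binding, and matches were held by 3 of the 4 lower genes and by *Hspe1*, which was higher.

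The stretches that hold the matches are shown for genes that passed the test, 5′ to 3′ on the strand of the gene, with the matched units in capitals. The *Hspa1a* and *Hspb1* stretches run from 150 to 51 bases before the start (chr17:34972207-34972306, minus strand, and chr5:135887769-135887868, plus strand). The *Hspe1* stretch is 30 bases long (chr1:55088053-55088082, plus strand), since its upstream bases lie within annotated exons of *Hspd1*.
Hspa1a: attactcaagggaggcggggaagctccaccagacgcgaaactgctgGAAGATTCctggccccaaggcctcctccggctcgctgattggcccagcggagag
Hspb1: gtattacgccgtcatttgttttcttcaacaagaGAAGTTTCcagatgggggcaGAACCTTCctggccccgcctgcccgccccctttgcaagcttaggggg
Hspe1: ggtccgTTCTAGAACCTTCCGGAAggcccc
The *Hspa1b* stretch (chr17:34959289-34959388, minus strand) was identical to that of *Hspa1a*, and over 250 bases before their starts the genes shared 247 bases. *Hspb1* held a pair of separate matches, and the 3 matches of *Hspe1* overlapped each other. They also lay before the *Hspd1* start at chr1:55087932, but not before its other annotated start at chr1:55088243. *Hspd1* did not pass the test.

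The genes most like the members over the 6 libraries were ranked by Pearson's r with the mean standardized level of the 10 members. Among 4942 other genes averaging 30 tags or more, they were *Matn2* (r = 0.97), *Sec23ip* (0.94), *Puf60* (0.93), *Ptpn13* (0.93) and *Ski* (0.92), given as a description over 6 libraries. The mean standardized level was highest in replicate 2 of each fraction, at 0.67 in IL-11- cells and 0.38 in IL-11+ cells, and within each replicate number it was lower in the IL-11+ library. *Matn2* gave 177, 243 and 211 tags in the IL-11- libraries and 149, 185 and 148 in the IL-11+ libraries, and did not pass the test (log2 fold change −0.22, edgeR adjusted p = 0.480).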

How the data were processed

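Per the labels and the methods of the study, the authors trimmed reads with Cutadapt 1.18, aligned them to RefSeq RNA (mm10) with Bowtie2 2.2.5 and deposited raw tag counts per gene symbol for 6 libraries. The test, on genes having 10 or more tags in 3 or more libraries, was that of edgeR 4.0.16 (R 4.3.3; TMM, quasi-likelihood test, Benjamini-Hochberg adjustment over 9334 genes). A gene was called when its fold change exceeded 2 and its adjusted p was under 0.05, as in the study. Replicates came from 3 mice per the methods, but p-values measure the spread between these libraries. Same-numbered libraries deviated together over 5063 genes (r = 0.23, 0.18 and 0.26). Since the methods name 3 mice for both fractions, the numbers were taken to pair the libraries. The test had no block, and the methods do not mention a block. The replicate block, as an alternative, gave 337 genes called higher. Other alternatives were RLE, iterative TMM, library-size scaling, DESeq2 1.42.0, other filters and leaving out each library. Steps were tested on simulated data.

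Named were all members, *Il11*, the called genes (at most 3 per direction) and the 3 genes with the highest mean normalized CPM of each list, and the 5 genes most like the members. Members and lists were chosen with earlier results of these data known. Sequences and positions were from RefSeq (GRCm38.p6), and shared stretches of 50 bases were counted in GENCODE M21 transcripts of genes whose symbols were counted. Protein sequences were not used here.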

Additional observations from a re-analysis of the deposited data

How the results depend on the processing

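The 10 members kept the direction of their log2 fold changes in all alternatives except *Hsp90aa1*, which was −0.0084 with scaling by library size only and −0.066 without IL-11- replicate 3, and at most 0.1619 (without IL-11- replicate 2). The number of members at an adjusted p under 0.05 was 1 higher and 4 lower; alternatives for these counts were added after seeing the data. It was 0 higher with scaling by library size only and 2 lower with DESeq2. Leaving out 1 library gave 0 to 1 higher and 0 to 4 lower, with 0 in both directions without IL-11- replicate 2. The cause was not tested. With the fold threshold, 0 members were called, and dropping it gave 1 higher and 4 lower; leaving out 1 library gave 0 to 1 lower (*Dnajb1*).

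Over all genes, 322 were called higher and 588 lower. Dropping the fold threshold gave 651 higher, and requiring 10 tags in all 6 libraries gave 256 lower, with 356 of the 588 no longer tested. Leaving out 1 library gave 341 to 579 lower, and without an IL-11- library 195 or 196 of the 588 were no longer tested. The replicate block gave 337 higher and 639 lower and changed no other call of a named gene than those given beside it.

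Each fraction had only 3 libraries.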
